A study of Bos taurus with 24 samples.

Results

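The miR-191 and miR-425 cluster is a pair of microRNA (miRNA) hairpins that lie next to each other in the bovine genome. Its members here were the rows of the deposited tables named bta-miR-191, bta-miR-425-5p and bta-miR-425-3p, and 3 of 3 were found among the 796 miRNAs listed in both tables. They were chosen by name, with earlier results of these data known. In the RefSeq annotation of assembly ARS-UCD2.0, MIR191 and MIR425 are neighbours with DALRD3 and WDR6 on one side and IMPDH2 and NDUFAF3 on the other. The only gene listed between them, MIR191B, lies inside the interval of MIR191. No mature sequence of the members was used here.

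A miRNA hairpin is cut from a longer transcript and then cut again into a short duplex, whose 5p and 3p arms come from either side of the hairpin. One arm is usually kept by the Argonaute protein and guides it to target mRNAs, and the other is mostly degraded. In human and mouse, miR-191 and miR-425 sit in an intron of DALRD3 and can be copied on the same transcript. Both are found in many tissues, and miR-191 has often been proposed as a reference miRNA for normalizing other miRNAs.

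Small RNA was sequenced from mammary gland biopsies of multiparous midlactation Holstein (HOLS) and Montbéliarde (MONT) cows. Each cow was sampled on day 0, before a feed restriction and on ad libitum feed (CONT), and at its end, after 6 days at 60% of the net energy of lactation by the labels (REST). The study's methods give a lower allowance than the labels, and which one applied was not settled here. Tables of 10 libraries from 5 HOLS cows and 12 libraries from 6 MONT cows were analysed, and the labels name 1 more HOLS cow that was not analysed here. The biopsies of a cow came from alternate sides of the rear udder, so period and side cannot be told apart within a cow. Ages and genotypes were not given beyond breed and parity, and no cow stayed on full feed beside the restricted ones, so the change with time alone was not measured.

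The total miRNA counts per library ranged from 6087865 to 18913916. The study reported a lower share of clean reads in MONT than in HOLS libraries. It named library quality as a possible reason for the lack of calls in MONT. Breed and library quality cannot be told apart here. Levels are given as CPM (counts scaled to a common library total) after TMM normalization over the 22 libraries, which rescales each library by its miRNAs of middling change. A biopsy holds several cell types, and fewer cells of a type cannot be told apart from less RNA per cell. Of 7 epithelial marker miRNAs 6 were found, and none was at 0 in any library. Their summed level ranged from 35730 to 48316 CPM in HOLS CONT, from 23646 to 55416 in HOLS REST, from 17642 to 48519 in MONT CONT and from 11736 to 33472 in MONT REST. In such sums each marker weighs by its level, and here miR-141, at 23636 CPM on average, weighed most. The libraries of MONT cow 9615 stood apart. Across 388 miRNAs its CONT and REST libraries deviated from their group means with a correlation of -0.19, against 0.12 to 0.67 in the other 10 cows, so results are also given without this cow where they rest on it.

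The members differed greatly in abundance. Averaged over all libraries miR-191 was at 11303 CPM, miR-425-5p at 73.3 CPM and miR-425-3p at 9.26 CPM, which made them the 15th, 127th and 214th of the 796 miRNAs by mean level. These levels are shares of counts, with no correction for length or for how well each miRNA takes an adapter. In a single library miR-191 took 0.707% to 1.49% of all miRNA counts and held ranks 14 to 21. The ranks of miR-425-5p lay between 119 and 140, and those of miR-425-3p between 181 and 251. The ranges of ranks did not overlap, so the order miR-191, miR-425-5p, miR-425-3p held in each of the 22 libraries.

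**Figure D1:**
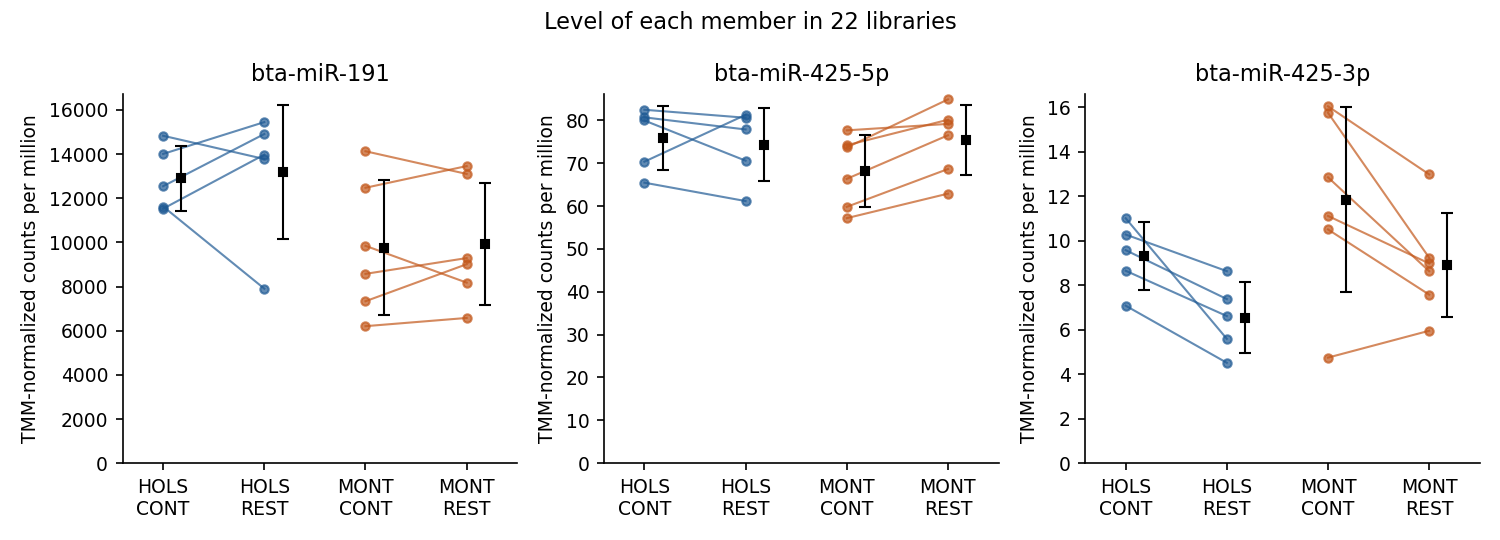
TMM-normalized CPM (y axis, from 0, a scale of its own in each panel) of each member in the 22 libraries by breed and period, with a line for each cow and squares with bars for the mean ± SD. For miR-425-3p the lines of all 5 HOLS cows and of 5 of 6 MONT cows go down from CONT to REST, while those of miR-191 go both ways.

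miR-191 was the abundant member. In HOLS CONT its level was 11524, 12542, 11623, 14005 and 14827 CPM in cows 1155, 1165, 2182, 8200 and 9195. In HOLS REST the same cows had 13972, 14906, 7903, 15445 and 13774 CPM. The periods overlapped, with 2 REST libraries above all CONT libraries and cow 2182 below them all. In MONT the lowest, median and highest levels were 6204, 9208 and 14125 CPM in CONT, and 6576, 9148 and 13454 CPM in REST. These ranges lay nearly on top of each other.

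The change of miR-191 with restriction was small next to its spread between cows. The edgeR quasi-likelihood test gave a log2 fold change (REST minus CONT) of 0.08 with an SE of 0.16 and a 95% interval of -0.25 to 0.42 in HOLS (P_adj = 0.822). In MONT it was 0.04 with an SE of 0.21 and an interval of -0.41 to 0.50 (P_adj = 0.906). The median over all tested miRNAs was 0.02 in HOLS and -0.01 in MONT. The level was higher at REST in 3 of 5 HOLS cows and in 4 of 6 MONT cows. These intervals, from fits with libraries taken as unpaired, still allow a change of about 0.4 to 0.5 on the log2 scale in either breed. With the cow as a block, the change was 0.06 with an interval of -0.20 to 0.32 in HOLS (edgeR, P_adj = 0.780). In MONT it was 0.04 with an interval of -0.20 to 0.28 (edgeR, P_adj = 0.800).

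The mean level of miR-191 was lower in MONT than in HOLS in both periods, without passing the test. Breed cannot be told apart from library quality in this comparison. Means were 12904 ± 1465 CPM (SD, n = 5) in HOLS CONT and 9758 ± 3045 CPM (SD, n = 6) in MONT CONT, a log2 difference of -0.38 with an SE of 0.20 (edgeR, P_adj = 0.276). At REST they were 13200 ± 3039 CPM (SD, n = 5) and 9934 ± 2758 CPM (SD, n = 6), a log2 difference of -0.44 with an interval of -0.87 to -0.01 (edgeR, P_adj = 0.142). At REST 4 HOLS libraries lay above every MONT library, and cow 2182 lay among the MONT values. Without cow 2182 the difference at REST was -0.58 and passed the threshold (edgeR, P_adj = 0.0484), in a fit that called 57 of 376 miRNAs. Leaving out any other cow gave an edgeR P_adj of 0.107 to 0.338. Cow 2182 stood out by its miR-191 level, the tested value itself, so no conclusion is drawn from that call. Cow 2182 also had the lowest sum of epithelial markers of the HOLS REST libraries, 23646 CPM against 36526 to 55416 in the others. Its leukocyte markers summed to 1665 CPM against 2639 to 3795, and its endothelial markers to 28873 CPM against 29837 to 41791. It was the lowest in these lists too. Its sums for smooth muscle and stroma, 241957 CPM, and red blood cells, 4092 CPM, lay within the range of the others. At CONT this cow was also the lowest of HOLS in epithelial (35730 CPM), leukocyte (1719 CPM) and endothelial sums (23974 CPM). Its miR-191 there was 11623 CPM, above the lowest of 11524 CPM. At CONT, where 0.556% of all miRNAs were called between the breeds, no marker was called. At REST, where 15.3% were, some markers were called. Of 6 epithelial miRNAs 1 was higher and 2 were lower in MONT, and of 5 markers of smooth muscle and stroma 3 were higher. Of 2 endothelial markers 1 was lower in MONT, and no marker of leukocytes or red blood cells was called. The markers of smooth muscle and stroma summed to 214121 to 276264 CPM in HOLS REST and to 198164 to 455680 CPM in MONT REST, and none was at 0. The part of tissue composition in the miR-191 difference was not tested.

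miR-425-5p is the more abundant arm of its hairpin. In HOLS CONT it was at 80.7, 80.0, 82.5, 70.4 and 65.5 CPM in cows 1155, 1165, 2182, 8200 and 9195. In HOLS REST it was at 77.9, 70.6, 80.6, 81.3 and 61.2 CPM in the same order. Cow 9195 was the lowest in both periods, and the periods overlapped almost entirely. In MONT the lowest, median and highest levels were 57.2, 70.0 and 77.7 CPM in CONT, and 62.9, 77.9 and 84.9 CPM in REST. There 3 REST libraries lay above all CONT libraries.

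No difference of miR-425-5p passed the test. The log2 fold change with restriction was 0.03 with an SE of 0.12 and an interval of -0.23 to 0.29 in HOLS (edgeR, P_adj = 0.947). In MONT it was 0.15 with an SE of 0.14 and an interval of -0.16 to 0.45 (edgeR, P_adj = 0.578). All 6 MONT cows had a higher level at REST, by 0.03 to 0.21 on the log2 scale, and 4 of 5 HOLS cows had a lower one. The count in MONT was also 6 of 6 with DESeq2's size factors but 3 of 6 with library size only, and the count of lower HOLS cows was 2 of 5 with DESeq2's size factors. Between the breeds the log2 difference (MONT minus HOLS) was -0.13 at CONT (edgeR, P_adj = 0.635) and -0.01 at REST (edgeR, P_adj = 0.983).

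miR-425-3p is the rarer arm, with 37 to 198 counts per library. In HOLS CONT its level was 11.0, 9.58, 7.08, 10.3 and 8.65 CPM in cows 1155, 1165, 2182, 8200 and 9195. In HOLS REST it was 5.59, 7.38, 4.51, 8.63 and 6.61 CPM in the same cows. Each cow was lower at REST, and 4 of the 5 CONT libraries lay above every REST library. In MONT the lowest, median and highest levels were 4.75, 11.98 and 16.04 CPM in CONT, and 5.95, 8.80 and 13.0 CPM in REST. Cow 9615 was the lowest in both MONT periods and was the only MONT cow with a higher level at REST.

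**Figure D2:**
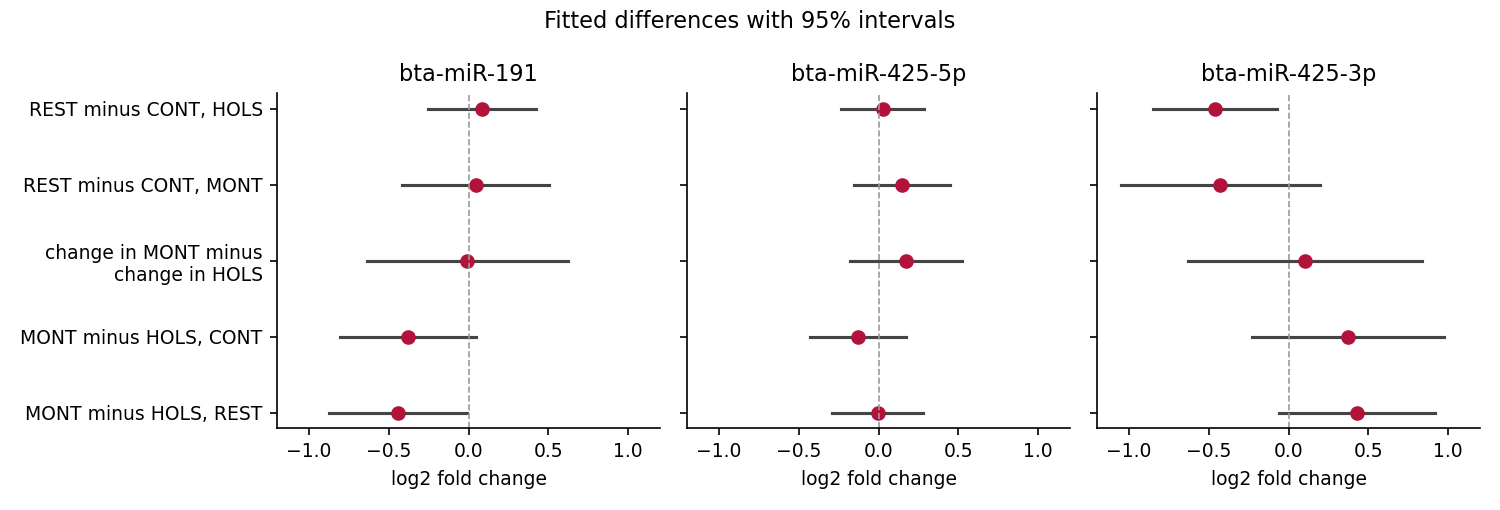
Log2 fold change (x axis) of each member in the 5 comparisons, as points with 95% intervals from the edgeR fit, and a dashed line at no difference. The REST minus CONT points of miR-425-3p lie at -0.46 in HOLS and -0.43 in MONT, with a wider interval in MONT, and those of the other members lie near 0.

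In the comparison of periods within HOLS, none of the 3 members passed the threshold of an adjusted p of at most 0.05 when libraries were taken as unpaired, where 2.41% of 374 tested miRNAs did. miR-425-3p had a log2 fold change of -0.46 with an SE of 0.18 and an interval of -0.85 to -0.07 (edgeR, P_adj = 0.179). Its unadjusted p of 0.0239 in the edgeR fit was 1 of 87 below 0.05, a share of 23.3%. With the cow as a block it fell by 0.47 on the log2 scale and passed the threshold narrowly (edgeR, P_adj = 0.0491), where 16.3% of the miRNAs were called and 8.29% were called lower. That call held in 1 of the 5 fits that left out a cow: P_adj in edgeR was 0.0474 without cow 8200, and 0.189, 0.075, 0.1003 and 0.0604 without cows 1155, 1165, 2182 and 9195.

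Within MONT none of the members was called, as was the case for all 349 miRNAs tested (0%), and DESeq2 called 0 as well, although 47 (13.5%) had an unadjusted p under 0.05 in edgeR. miR-425-3p had a log2 fold change of -0.43 with an SE of 0.29 and an interval of -1.05 to 0.20 (edgeR, P_adj = 0.448). With the cow as a block it was -0.37 (edgeR, P_adj = 0.315). Leaving out 1 MONT cow at a time from the unpaired fit gave -0.28 (edgeR, P_adj = 0.874), without cow 2614, to -0.50 (edgeR, P_adj = 0.131), without cow 9615, where 46 miRNAs were called. With the block, the range was -0.24 without cow 2614 (edgeR, P_adj = 0.644) to -0.50 without cow 9615 (edgeR, P_adj = 0.0324), and the latter fit called 39.1% of the miRNAs.

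The direction of miR-425-3p was shared by nearly all animals. On the log2 scale its level changed by -0.98 to -0.25 in the 5 HOLS cows and by -0.77 to 0.33 in the 6 MONT cows. Over all 11 cows the mean change was -0.43 ± 0.34 (SD, n = 11), with 10 of 11 cows lower at REST. With library size only, 9 of 11 were lower. The share of all miRNAs with as many cows on one side is not given here. The count is therefore not shown to be particular to miR-425-3p. In a fit over both breeds with the cow as a block, chosen after the values were seen, miR-425-3p fell by 0.44 on the log2 scale with an SE of 0.11 (edgeR, P_adj = 0.0203). That fit called 14.4% of 388 miRNAs, and 10.1% were called lower. Without cow 9615 the fall was 0.48 (edgeR, P_adj = 0.00218), where 44.1% of the miRNAs were called and 21.9% were called lower. The call was narrow: it held in 5 of the 11 fits that left out a cow. Without cow 1155, 1165, 1613, 1640, 2182 or 2614 the value was -0.43 to -0.36 and P_adj in edgeR was 0.0542 to 0.080. In the same fit over all 11 cows, miR-191 was at 0.02 (edgeR, P_adj = 0.864) and miR-425-5p at 0.07 (edgeR, P_adj = 0.478), and neither passed.

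Cell type markers moved between the periods as well. A summed level mostly follows the most abundant marker of its list. Mean levels were 258169 CPM for miR-143 and 22.9 to 976 CPM for the other smooth muscle and stroma markers. They were 2342 CPM for miR-142-5p and 13.1 to 133 CPM for the other leukocyte markers. For red blood cells they were 3246 CPM for miR-486 and 7.75 and 185 CPM for the others. For endothelium they were 26147 CPM for miR-126-5p and 2343 CPM for miR-126-3p. The summed level of smooth muscle and stroma markers was higher at REST in 5 of 5 HOLS cows and 4 of 6 MONT cows, and that of epithelial markers was lower in 4 of 5 and 5 of 6. Leukocyte sums were higher in 4 of 5 and 5 of 6, endothelial sums in 4 of 5 and 2 of 6, and red blood cell sums in 4 of 5 and 2 of 6. The median log2 fold changes in the unpaired fits, in HOLS and MONT, were 0.31 and 0.66 for smooth muscle and stroma, -0.21 and -0.46 for epithelium, and 0.17 and 0.21 for leukocytes. They were 0.32 and -0.08 for endothelium and -0.09 and -0.75 for red blood cells. No marker was called in those fits. In the blocked HOLS fit, edgeR called 3 of 6 epithelial markers lower, and it called higher 2 of 5 of smooth muscle and stroma, 2 of 5 of leukocytes, 1 of 2 of endothelium and 1 of 3 of red blood cells. That fit called 16.3% of all miRNAs, and 8.29% were called lower. No marker was called with the block in MONT, where no miRNA was. Over both breeds 1 epithelial marker was called lower, in a fit that called 14.4% of all miRNAs and 10.1% lower. The part of tissue composition in the change of miR-425-3p was not tested.

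The breeds were not shown to differ in their response. The interaction of breed and period was -0.01 for miR-191, 0.17 for miR-425-5p and 0.10 for miR-425-3p on the log2 scale, each with the same edgeR P_adj of 0.991. This fit took libraries as unpaired. Its intervals were wide, from -0.64 to 0.63 for miR-191, from -0.18 to 0.52 for miR-425-5p and from -0.63 to 0.84 for miR-425-3p. No miRNA was called for the interaction (0% of 388) in edgeR or in DESeq2, and 3 (0.773%) had an unadjusted p under 0.05 in edgeR.

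None of the members was called between the breeds. The share of all miRNAs called was 0.556% at CONT and 15.3% at REST. The level of miR-425-3p was higher in MONT by 0.37 on the log2 scale with an SE of 0.28 at CONT (edgeR, P_adj = 0.475) and by 0.43 with an SE of 0.23 at REST (edgeR, P_adj = 0.202). Neither passed, and the mean difference had the opposite sign to that of miR-191.

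The ratio of the arms compares both products of a single hairpin within a library, so it does not depend on normalization between libraries. miR-425-5p exceeded miR-425-3p in every library. In HOLS CONT the ratio was 7.31, 8.32, 11.6, 6.82 and 7.54 in cows 1155, 1165, 2182, 8200 and 9195. In HOLS REST it was 13.9, 9.51, 17.7, 9.39 and 9.20. Each HOLS cow had a higher ratio at REST, and cow 2182 had the highest ratio in both periods. In MONT the lowest, median and highest ratios were 3.79, 5.85 and 11.9 in CONT, and 6.52, 8.88 and 10.4 in REST. Again cow 9615 was the exception, with the highest ratio at CONT and a lower one at REST.

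**Figure D3:**
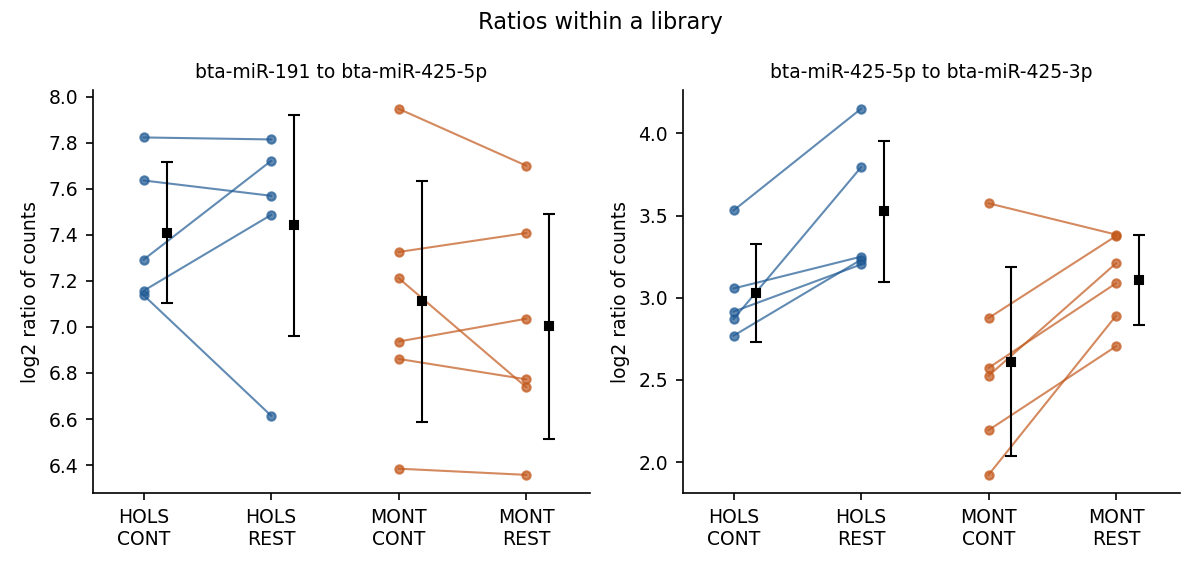
Log2 ratio of counts (y axis, which does not start at 0) of miR-191 to miR-425-5p and of miR-425-5p to miR-425-3p within each library, by breed and period, with a line for each cow and squares with bars for the mean ± SD. The arm ratio on the right goes up from CONT to REST in 10 of 11 cows, and the ratio between the hairpins on the left goes up in 4 of 11.

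The log2 arm ratio was higher at REST by 0.50 ± 0.29 (SD, n = 5) in HOLS and by 0.50 ± 0.38 (SD, n = 6) in MONT. With libraries taken as unpaired, the two-sided exact permutation test gave p = 0.0635 in HOLS and p = 0.0887 in MONT. Both were 0.355 after adjustment over the 8 exact tests of ratios. The exact paired test gave 0.0625 in each breed, which is the smallest p that 5 cows allow, while 6 cows allow 0.0312. Over all 11 cows the change was 0.50 ± 0.33 (SD, n = 11) and the exact paired test, chosen after the values were seen, gave p = 0.00195. Without cow 9615 the change was 0.57. That cow was the only one with a lower ratio at REST. Leaving it out therefore makes 10 of 10 cows higher and fixes the exact paired p at the smallest it allows, 0.00195. With any 1 of the 11 cows left out, the change was 0.45 to 0.57 and the exact paired p at most 0.00391. The change differed between the breeds by 0.0007 on the log2 scale (exact permutation p = 0.996).

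The unpaired p-values of the arm ratio moved both ways with single cows. Without cow 2182 the HOLS difference was 0.47 with an exact permutation p of 0.0286, and without cow 9615 the MONT difference was 0.64 with an exact permutation p of 0.0159. Cow 2182 had the highest ratio in both periods. Without it every HOLS REST ratio lay above every CONT ratio, which fixes p at the smallest allowed. With other cows left out, the exact permutation p reached 0.229 in HOLS and 0.183 in MONT. At CONT the log2 arm ratio was lower in MONT by a difference of -0.42 (exact permutation p = 0.177). Without cow 9615 this difference was -0.61 (exact permutation p = 0.0238), and with other cows left out the exact permutation p reached 0.352. Those p-values are not adjusted over the 8 tests.

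Other hairpins give a scale for the arm ratio. In 26 hairpins, both arms passed the filter on low counts. The ratio of the more to the less abundant miR-425 arm, 3.07 on the log2 scale as a median over libraries, exceeded the median of 2.14 over the 26, and 9 hairpins had a larger one. Its SD over libraries was 0.51, against a median of 0.46, and 14 hairpins had a smaller SD. The mean change from CONT to REST of 0.50 compared with a median size of 0.22, and 6 hairpins had a larger one. An arm ratio that moved the same way in at least 10 of 11 cows was found in 6 of the 26 hairpins, 23.1%, with miR-425 among them.

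The ratio of miR-191 to miR-425-5p compares the abundant products of the neighbouring hairpins. Its median over the 22 libraries was 152, with a range from 82.0 to 247. In HOLS CONT it was 143, 157, 141, 199 and 226 in cows 1155, 1165, 2182, 8200 and 9195, and in HOLS REST it was 179, 211, 98.0, 190 and 225. Cow 2182 alone lay below 100 among the HOLS libraries. In MONT the lowest, median and highest ratios were 83.5, 135 and 247 in CONT, and 82.0, 120 and 208 in REST.

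No difference in that ratio passed a test. On the log2 scale, REST minus CONT was 0.03 in HOLS (exact permutation p = 0.937) and -0.11 in MONT (exact permutation p = 0.708). The breeds differed by -0.30 at CONT (exact permutation p = 0.299), with MONT lower, and the changes in the breeds differed by -0.14 (exact permutation p = 0.450). The lowest of these p-values was 0.597 after adjustment over the 8 tests. The SD of 0.47 over libraries was close to that of miR-191 itself.

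miR-191b, whose hairpin interval lies inside that of miR-191, is listed apart. It was at 9.47 CPM on average, and the ratio of miR-191 to miR-191b had a median of 1224 and ranged from 603 to 2116. How reads that match both were divided was not given in the sources used here.

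The members were spread very differently across libraries. The SD of the log2 level over the 22 libraries was 0.17 for miR-425-5p, 0.41 for miR-191 and 0.50 for miR-425-3p, and the median over 388 miRNAs was 0.51. From the smallest SD upward, they ranked 6th, 148th and 190th of 388. Leaving out each cow in turn gave ranks 4 to 8, 95 to 167 and 169 to 220, with the rank of 95 for miR-191 found without MONT cow 1640. The highest level was 1.48 times the lowest for miR-425-5p, 2.49 times for miR-191 and 3.55 times for miR-425-3p. Counting error alone would give an SD of 0.0043 for miR-191, 0.0522 for miR-425-5p and 0.154 for miR-425-3p. It was thus the smallest share of the spread in the most abundant member.

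**Figure D4:**
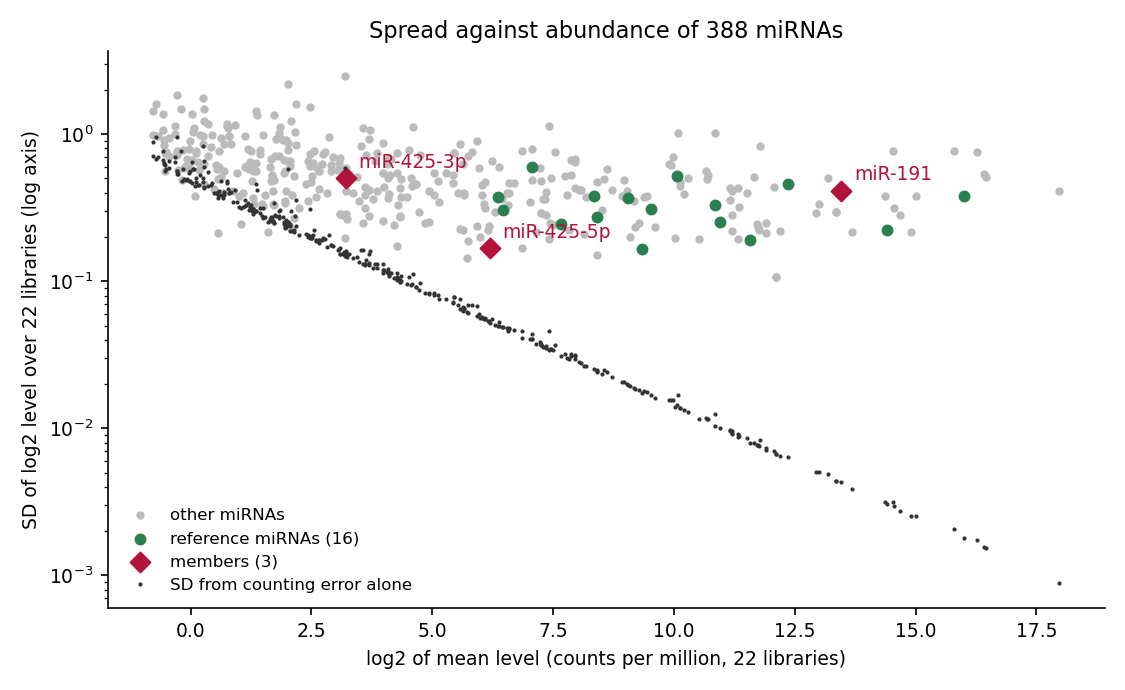
SD of the log2 level over 22 libraries (y axis, log axis) against the log2 of the mean level in CPM (x axis) for 388 miRNAs, with the 3 members as diamonds, 16 reference miRNAs in green and the SD from counting error alone as small black points. miR-425-5p lies near the lower edge of the cloud at its level, and miR-191 lies within it.

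On the TMM scale miR-425-5p varied less than nearly all miRNAs of similar abundance, and miR-191 varied more than most. Of 46 miRNAs within 2-fold of the mean level of miR-425-5p, 1 had a smaller SD. The same count was 7 of 8 for miR-191 and 30 of 69 for miR-425-3p. Of those 8, miR-22-3p and miR-3600 had nearly the same level, 10474 and 10476 CPM, and the same SD of 0.295. They may hold the same reads, so the 8 are few and perhaps not all separate. The rank of miR-425-5p depended on the scaling: it was 9 with DESeq2's size factors and 28 with library size only, where the SD was 0.27. With library size only miR-191 had an SD of 0.32 and rank 67.

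A list of 16 miRNAs often used as references was found in full. Their SD ran from 0.17 for miR-23a to 0.60 for miR-423-5p, with a median of 0.32. Of the 16, 13 had a smaller SD than miR-191 and 1 had a smaller SD than miR-425-5p. In the unpaired fits none of the 16 was called between the periods in either breed or for the interaction, and no member was. With the cow as a block, miR-25 was called higher at REST in HOLS and over both breeds, and none was called in MONT. Between the breeds miR-16a and miR-186 were called lower in MONT at both CONT and REST, while miR-191 was not called.

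The levels of the neighbouring hairpins were not closely alike across libraries. On log2 levels centred within breed and period, over 22 libraries, the correlation of miR-191 was -0.36 with miR-425-5p and -0.33 with miR-425-3p, and that of the 2 arms of miR-425 was 0.33. The points share their library, its depth and its tissue makeup, so these are descriptions. Ordered by likeness to miR-191 among 387 other miRNAs, miR-425-5p came 332nd. The most alike to miR-191 were miR-374a (r = 0.91), miR-10a (r = 0.87) and miR-183 (r = 0.86). For miR-425-5p they were miR-423-3p (r = 0.86), miR-92b (r = 0.76) and miR-128 (r = 0.74). For miR-425-3p they were miR-190a (r = 0.80), miR-2320-5p (r = 0.77) and miR-2284ab (r = 0.72). No miRNA stood in more than 1 of these lists.

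The changes of the members from CONT to REST were also compared across the 11 cows, as 3 relations. For miR-191 and miR-425-5p Pearson's r was 0.02 (permutation p = 0.949) and Spearman's rho was -0.05 (permutation p = 0.904). For miR-191 and miR-425-3p r was -0.24 (permutation p = 0.450) and rho was -0.29 (permutation p = 0.386). For the arms of miR-425 r was 0.28 (permutation p = 0.422) and rho was 0.46 (permutation p = 0.156). None passed before or after adjustment, where the values for r were 0.949, 0.674 and 0.674 and those for rho 0.904, 0.579 and 0.467.

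Those relations were sensitive to single cows and to breed. Without the 2 cows farthest from the median of the first member named, r was -0.03, -0.72 and 0.49. Within the 6 MONT cows r was -0.13, -0.64 and -0.004 with exact permutation p of 0.779, 0.164 and 0.997. No correlation was computed within the 5 HOLS cows. Under library size only the arms of miR-425 had an r of 0.68 (permutation p = 0.0224).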

How the data were processed

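The deposited counts are whole numbers per miRNA and library without normalization. Before deposit, the authors clipped adapters, filtered reads by length and counted miRNAs with ncPRO-seq and miRDeep2. The submitters' processing notes name bcl2fastq 2.17.1.14 and DESeq2 1.18.1. The 22 columns of normalized counts and the authors' means, fold changes and p-values were not used. Groups and cows came from the labels. Counts were tested with edgeR 4.0.16 (R 4.3.3): TMM factors, filterByExpr (minimum count 10), a quasi-likelihood F test, and P_adj by Benjamini-Hochberg over all tested miRNAs, called at 0.05 or below, within each breed, within each period and as an interaction over 22 libraries. The unpaired edgeR fits were tested on simulated counts with no pairing of libraries. The fits with the block were not part of that test. The members and lists were chosen with earlier results of these data known.

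Ratios used counts plus 0.5. Permutation tests of ratios were exact and two-sided, and those of correlations over 11 cows used 100000 resamples. The 3 members, their 3 most alike miRNAs each, and the most and least steady reference miRNA are named by rule, with reference miRNAs that were called. The libraries of a cow are paired by the labels. Their deviations correlated from 0.21 to 0.48 in HOLS, and at 0.38, 0.67, 0.60, 0.12, 0.50 and -0.19 in MONT. Fits with the cow as a block are therefore given where a call changed, for the change of miR-191 within each breed, and for the interaction. Alternatives were DESeq2 1.42.0, its size factors in edgeR, library size only, TMM without miR-143, no filter, ratios with 1 added, the block, and each cow left out. Leaving out cows in the fits with the block, and all tests over both breeds, were added after seeing the data. Intervals of the unpaired fits cover spread between libraries, and those with the block cover spread of the change within cows. Counting SD covers counting error only.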

Additional observations from a re-analysis of the deposited data

Results flagged for a closer look

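The REST library of HOLS cow 2182 lay far from the other 4 of its group in the level of miR-191. It was at 7903 CPM, against 13774 to 15445 CPM in the others. The same library was flagged for the log2 ratio of miR-191 to miR-425-5p, at 6.61 against 7.49 to 7.81. Both flags rest on the same miR-191 count. In all, 20 sets of values were examined, and chance flags about 1 in 20, so 1 flag would come by chance. This library was also the lowest of its group in the summed epithelial markers, at 23646 CPM. The same held for leukocyte markers, at 1665 CPM, and endothelial markers, at 28873 CPM. Its sums for smooth muscle and stroma, 241957 CPM, and red blood cells, 4092 CPM, lay within the range of the others. The CONT library of the same cow was also the lowest of HOLS CONT in the epithelial, leukocyte and endothelial sums. The part of the markers in the flag was not tested.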

How the results depend on the processing

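The call of miR-425-3p in HOLS depended on pairing: with the cow as a replicate block it was -0.47 (edgeR, P_adj = 0.0491). The block also turned the miR-191 interaction to 0.036, and it changed no other call. The scaling turned several values near 0, none of which passed. With library size only, the miR-191 difference was -0.089 in HOLS, -0.0079 in MONT and 0.081 for the interaction, and miR-425-5p was at -0.15 in HOLS and 0.13 for MONT minus HOLS at REST. The median of all miRNAs then moved from 0.02 to -0.15 in HOLS and from 0.03 to 0.15 for MONT minus HOLS at REST. The SDs became 0.32 for miR-191, 0.27 for miR-425-5p and 0.59 for miR-425-3p. With that scaling r of cow changes became 0.14 for miR-191 with miR-425-3p. For the arms of miR-425 it became 0.68 (permutation p = 0.0224, not adjusted). The miR-425-5p difference between breeds at REST was 0.011 with TMM without miR-143 and 0.00031 with no filter. With each cow left out in turn, log2 differences ran from -0.58 to -0.35 for miR-191 and from -0.052 to 0.073 for miR-425-5p (MONT minus HOLS, REST), from -0.045 to 0.034 for miR-425-5p in HOLS, and from -0.17 to 0.038 for miR-191 and -0.13 to 0.17 for miR-425-3p in the interaction. The log2 ratio of miR-191 to miR-425-5p ran from -0.067 to 0.17 in HOLS. The log2 arm ratio ran from 0.39 to 0.57 in HOLS, 0.40 to 0.64 in MONT, -0.61 to -0.28 between breeds at CONT and -0.093 to 0.14 for the difference in change. The SD of miR-191 ran from 0.35 to 0.43, and r of cow changes for miR-191 and miR-425-5p from -0.23 to 0.25. With the block as well, they ran from -0.029 to 0.19 for miR-191, -0.043 to 0.037 for miR-425-5p and -0.56 to -0.36 for miR-425-3p in HOLS, and from -0.50 to -0.24 for miR-425-3p in MONT. Over both breeds they ran from -0.48 to -0.36 for miR-425-3p and from -0.092 to 0.0029 for the log2 ratio of miR-191 to miR-425-5p. The call of miR-425-3p was lost in 4 of 5 of these fits in HOLS and in 6 of 11 over both breeds. The cause was not tested. The calls that appeared without a cow were those of miR-191 between breeds at REST without cow 2182 (P_adj = 0.0484 in edgeR), of miR-425-3p in MONT with the block without cow 9615 (P_adj = 0.0324 in edgeR) and of the arm ratio given with the results. The counts of all miRNAs called moved as well: 61 in HOLS with the block, 26 with DESeq2, 20 with library size only and 5 with no filter against 9, 20 with DESeq2 against 2 between breeds at CONT, and 46 in MONT without cow 9615 against 0. The depth limits miR-425-3p most, with as few as 37 counts in a library.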
